A study of Drosophila melanogaster with 3 samples.

Results

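Regions bound by clockwork orange (cwo) just upstream of promoters that do not face a divergent neighbour made up 24.0% of the deposited optimal list, 1768 of 7366 regions. They were chosen by position alone, on the fly build dm6. A region was a member when its summit lay within 1000 bp of the transcription start site (TSS) of a protein-coding gene and upstream of the nearest one on that gene's strand. Summits within 1000 bp of a divergent pair were left out, a pair being TSSs of different genes on opposite strands that point away from each other and lie at most 1000 bp apart. The members belonged to 1344 genes, which is 9.64% of the 13945 protein-coding genes of the annotation and includes 153 genes that also have a TSS in a divergent pair. Of the 8893 genes with no TSS in such a pair, 1191 (13.4%) had a member.

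The data are chromatin immunoprecipitation with sequencing (ChIP-seq) from 3 biological replicates of a single group, with no second condition analysed here. Per the labels, each replicate was whole Drosophila melanogaster embryos of mixed sex, 6 to 24 h old, from a stable transgenic line with GFP fused to the C-terminus of cwo, precipitated with an antibody to GFP after sonication (size range 200 to 800). The signal therefore comes from a tagged protein of 1 line, averaged over every cell type of the embryo. Each replicate list and the list called on the pooled reads hold 30000 regions, and the optimal list equals the 7366 strongest of the pooled list; read depth is unknown from these files.

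Clockwork orange is a basic helix-loop-helix repressor with an Orange domain. In the adult circadian clock the activator pair CLOCK and CYCLE binds E-boxes at per, tim, vri, Pdp1 and cwo, and cwo binds the same kind of element and represses transcription there. The palindromic E-box CACGTG is the best known of these elements. Upstream DNA next to a single TSS is where a promoter-proximal enhancer and the core promoter meet. Leaving out divergent pairs removes the ambiguity of a shared promoter. Which gene a site belongs to can still be unclear, as at internal TSSs or near non-coding TSSs.

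The sequences at the strongest members show both kinds of site. The first 8 lines below give 61 bp around a CACGTG near the summit and the last 3 give DNA around summits with no CACGTG within 100 bp, all on the strand of the gene. Positions on dm6 are chr3L:18996679-18996739 (minus strand) for CG18135, chr2L:3354939-3354999 (minus strand) for E23, chrX:1830623-1830683 (plus strand) for prage, chr3R:9494093-9494153 (minus strand) for CG16779, chr2L:5342385-5342445 (minus strand) for Acsf2, chr3R:8945033-8945093 (minus strand) for CG11964, chr2L:3153278-3153338 (minus strand) for Mad, chrX:9600067-9600127 (plus strand) for Gga. The 3 without it are chr3R:15985818-15985878 (plus strand) for srp, chrX:15867953-15868013 (plus strand) for Gapdh2, chr2L:15068081-15068141 (minus strand) for vig. Capitals mark CACGTG, and at vig the variant AACGTG, which reads CACGTT on the other strand. CACGTT also stands, unmarked, beside CACGTG in the lines of CG11964 and Mad.
CG18135: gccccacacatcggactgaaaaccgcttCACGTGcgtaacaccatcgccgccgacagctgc
E23: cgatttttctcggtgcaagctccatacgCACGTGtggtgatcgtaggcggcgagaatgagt
prage: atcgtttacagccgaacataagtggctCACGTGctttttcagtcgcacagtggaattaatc
CG16779: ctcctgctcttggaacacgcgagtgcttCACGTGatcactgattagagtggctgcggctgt
Acsf2: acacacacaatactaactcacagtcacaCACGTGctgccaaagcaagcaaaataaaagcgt
CG11964: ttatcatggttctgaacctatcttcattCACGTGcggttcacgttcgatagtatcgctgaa
Mad: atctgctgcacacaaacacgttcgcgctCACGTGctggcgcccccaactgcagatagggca
Gga: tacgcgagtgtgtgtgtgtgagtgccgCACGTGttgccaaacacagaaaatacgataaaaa
srp: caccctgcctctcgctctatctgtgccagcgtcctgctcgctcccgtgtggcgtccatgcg
Gapdh2: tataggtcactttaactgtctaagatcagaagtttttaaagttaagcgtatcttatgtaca
vig: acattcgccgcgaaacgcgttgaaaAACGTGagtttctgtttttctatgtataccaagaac

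Members were closest together just short of the TSS. The median distance was 248 bp, with quartiles of 138 and 451 bp and a range of 1 to 998 bp. The interval from 100 to 200 bp held the most members, 396 (22.4%), and the interval from 900 to 1000 bp the fewest, 47 (2.66%). Upstream regions of the pooled list more than 1000 bp from any optimal summit also crowded toward the TSS. Their median was 283 bp, with quartiles of 131 and 544 bp. Of these, 19.6% lay in the first 100 bp and 18.1% at 100 to 200 bp. Regions downstream of single promoters numbered 794 and were most frequent in the first 100 bp, with 236 of them (29.7%), against 308 members (17.4%) in the first 100 bp upstream. In the replicates' own 7366 strongest regions the class held 1725, 1761 and 1770 regions, with median distances of 252, 246 and 259 bp, so the replicates gave close counts and distances.

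**Figure D1:**
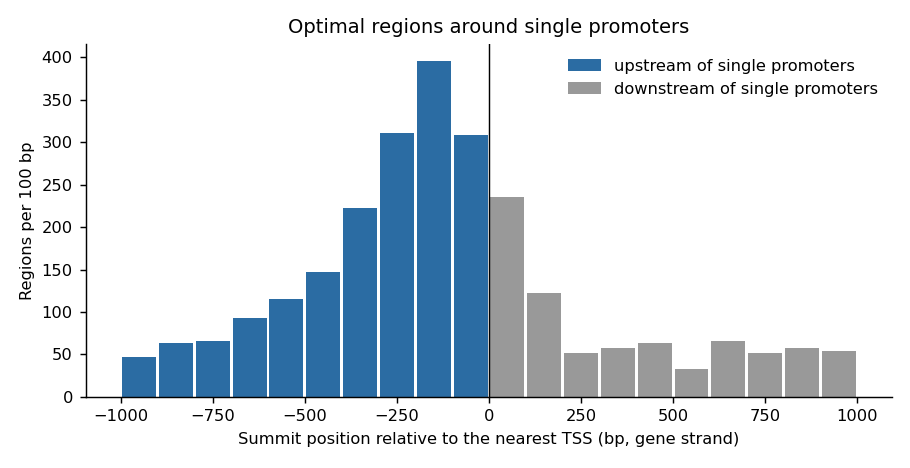
Histogram of optimal regions per 100 bp against the position of the summit relative to the nearest TSS in bp, with upstream members in blue at negative positions and downstream regions in grey at positive positions. Members peak at 396 between 100 and 200 bp upstream, and downstream regions peak at 236 in the first 100 bp.

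Not every member lay outside genes. By annotation 818 summits (46.3%) were intergenic, 784 (44.3%) intronic, 154 (8.71%) in an untranslated or non-coding exon and 12 (0.679%) in a coding exon. For 736 members (41.6%) the summit fell inside the very gene it was assigned to, upstream of an internal TSS, and the other 1032 lay outside that gene. The internal members and the outer ones sat at like distances, with medians of 263 and 238 bp. A share of 10.6% of members, 187 regions, lay within 1000 bp of a non-coding TSS as well. Genes on the plus strand had 825 members (46.7%), against 372 of 794 downstream regions (46.9%), an odds ratio of 0.992 (95% interval 0.839 to 1.17, two-sided Fisher exact test, p = 0.932).

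Most member genes had a single region. One member was found at 1022 genes, 2 at 246 genes and 3 at 55 genes. The gene with the most members was CG6231, with 7 members over its 5 TSSs, at places 828 to 7075 of the optimal list, and none of the 7 held CACGTG. Rtnl1, which encodes a reticulon of the endoplasmic reticulum, and Irk1, an inward rectifier potassium channel gene, had 5 each. Another 18 genes had 4 each, among them CG18135 and the transporter gene MFS14. Close summits count separately here: 238 members (13.5%) were secondary, with a stronger optimal summit within 400 bp.

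Members ranked somewhat higher in the list than downstream regions and regions beyond 1000 bp, and close to divergent pairs. Signal is the deposited score of the peak caller, on a scale the sources do not give, and it is used here only to order regions within a list, where place 1 is the strongest. The median place was 3134 for members, 3788 for downstream regions, 3240 for divergent pairs and 4055 for regions beyond 1000 bp. Among the 737 strongest regions of the list stood 248 members (14.0% of members, 12.5 to 15.7%), against 76 downstream regions (9.57%, 7.72 to 11.8%). The odds ratio was 1.54 (1.17 to 2.02, two-sided Fisher exact test, p = 0.00161); regions are not replicates, so this p treats each region as an independent unit. In the replicate lists the shares were 13.8%, 14.0% and 14.1% upstream, against 9.60%, 9.23% and 9.57% downstream, a difference of 4.48 ± 0.271 percentage points (SD, n = 3), positive in 3 of 3 replicates. An exact sign-flip permutation test on 3 replicates cannot go below p = 0.25, and it gave 0.250. Against divergent pairs the difference was smaller, 14.0% of members and 11.7% of divergent regions (odds ratio 1.23, 0.985 to 1.55, two-sided Fisher exact test, p = 0.0710). Within the strongest 3683 regions of the list the odds ratio against downstream regions was 1.31 and missed the threshold (two-sided Fisher exact test, p = 0.0757).

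Replicates held most members. The summit lay in 1 of the 7366 strongest regions of every replicate for 1320 members (74.7%, 72.6 to 76.6%), against 568 downstream regions (71.5%, 68.3 to 74.6%), with an odds ratio of 1.17 (0.972 to 1.41, two-sided Fisher exact test, p = 0.0992). Replicates 1, 2 and 3 held 85.9%, 91.5% and 91.2% of members. Only 5 members were held by none and 99 by a single replicate. Since these replicates also made the optimal list, the overlap is a description.

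The 20 members with the highest signal all came from the first 66 places of the optimal list and were held by every replicate. The first was CG18135 on 3L, 872 bp upstream of a TSS and inside an intron of the same gene, at places 1, 2 and 2 in replicates 1, 2 and 3. E23, which encodes an ecdysone-induced ABC transporter, had its member 176 bp upstream at places 5, 5 and 3. At prage the summit lay 601 bp upstream at places 8, 7 and 7. CG18135, E23 and prage thus kept nearly the same place in every replicate. The 20 were picked by signal on the pooled reads of the same replicates, so this agreement is a description.

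Several of the 20 lay at genes of metabolism and transport. MFS14, a transporter of the major facilitator superfamily, stood at places 21, 24 and 21, 120 bp upstream. The mitochondrial glycerol-3-phosphate dehydrogenase gene Gpo1 stood at places 25, 22 and 25, 890 bp upstream. Acsf2, an acyl-CoA synthetase family gene, stood at places 47, 39 and 39. The phosphoribosyl pyrophosphate synthetase gene Prps stood at places 61, 40 and 38, and Gapdh2, a glyceraldehyde-3-phosphate dehydrogenase gene of glycolysis, at places 69, 71 and 45. The regulators among the 20 were srp, a GATA factor of blood and fat body, at places 29, 26 and 27, the kinase gene Lk6, at places 52, 63 and 67, and Mad, the Smad transducer of Dpp signalling, at places 93, 49 and 53. Mad and the clathrin adaptor gene Gga (places 97, 54 and 66) had the largest SDs in places of the 20, at 24.3 and 22.2 over the 3 replicates. The rest were CG30010, fok, CG16779, Tina-1, CG7737, CG14100, vig and CG11964, at places 17 to 47 of the optimal list. Distances of the 20 ran from 33 bp at vig to 979 bp at Lk6, 13 summits were intergenic and 12 of the 20 had CACGTG.

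**Figure D2:**
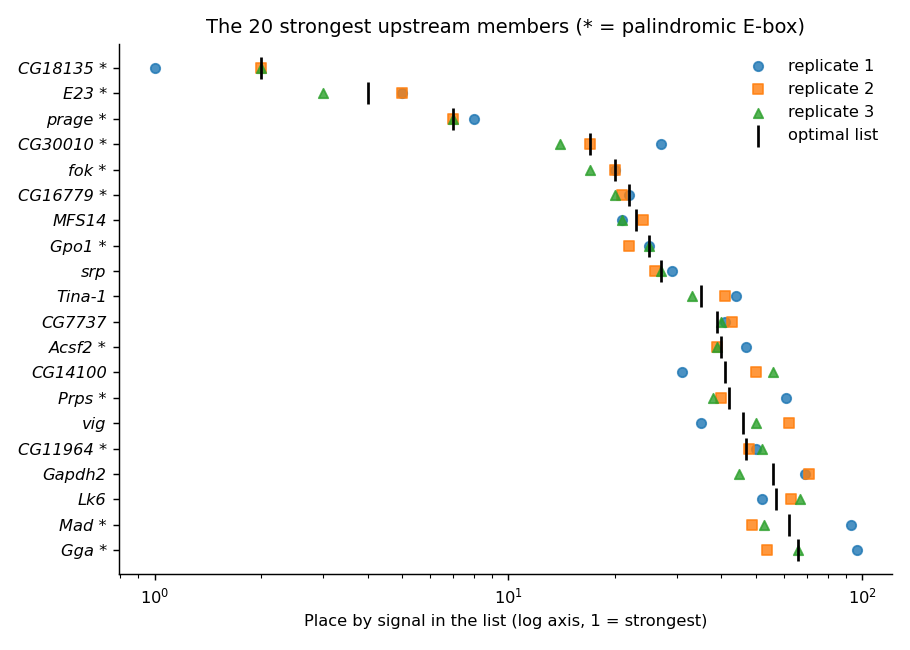
Place by signal of the 20 strongest upstream members in each replicate list (coloured symbols) and in the optimal list (black bars), on a log axis where 1 is the strongest, with a star for a palindromic E-box within 100 bp of the summit. CG18135 lies at places 1 to 2 in all replicates, and the widest spreads in places are those of Mad, from 49 to 93, and Gga, from 54 to 97.

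The palindromic E-box was frequent among members against the background and no more frequent than in the other optimal regions. CACGTG, which is its own reverse complement, lay within 100 bp of the summit in 212 of 1768 members (12.0%, 10.6 to 13.6%). Background upstream regions are those of the pooled list more than 1000 bp from any optimal summit that meet the same position rule, 2421 of 18722, and 116 of them (4.79%, 4.01 to 5.72%) held it. The odds ratio was 2.71 (2.14 to 3.43), with an adjusted p of 1.0e-16 by two-sided Fisher exact test over 4 comparisons. In the replicates 11.8% ± 0.143 of the upstream class held it, against 4.83% ± 0.215 of background upstream regions (SD, n = 3), higher in 3 of 3, with an exact sign-flip permutation p of 0.250, the smallest that 3 replicates allow. Of windows of 201 bp centred 247 bp upstream of all 8893 single promoters, 2.28% held it.

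Against the other classes of the optimal list the share in members was the lowest of 4. It was 15.2% (12.9 to 17.9%) downstream, 13.0% (11.2 to 15.1%) at divergent pairs and 13.9% (12.8 to 15.1%) beyond 1000 bp. None of these differences passed the threshold, with odds ratios for members of 0.758 (adjusted p = 0.0523), 0.912 (adjusted p = 0.419) and 0.843 (adjusted p = 0.0733) by two-sided Fisher exact test. The difference between members and downstream regions was -3.18 ± 0.681 percentage points in the replicates (SD, n = 3), 11.6%, 11.8% and 11.9% upstream against 14.2%, 14.9% and 15.8% downstream (exact sign-flip permutation p = 0.250). Members ranked higher than downstream regions and had fewer G and C bases, a median of 38.3% within 100 bp of the summit, against 44.3% downstream, and the comparison depended on which of these was held. With the list split into 4 parts by signal the Mantel-Haenszel odds ratio against downstream regions was 0.668 (exact conditional test, adjusted p = 0.00237 over 3 comparisons). With the regions split into 4 parts by GC content it was 0.990 (exact conditional test, adjusted p = 0.950). Both splits were added after the data were seen.

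**Figure D3:**
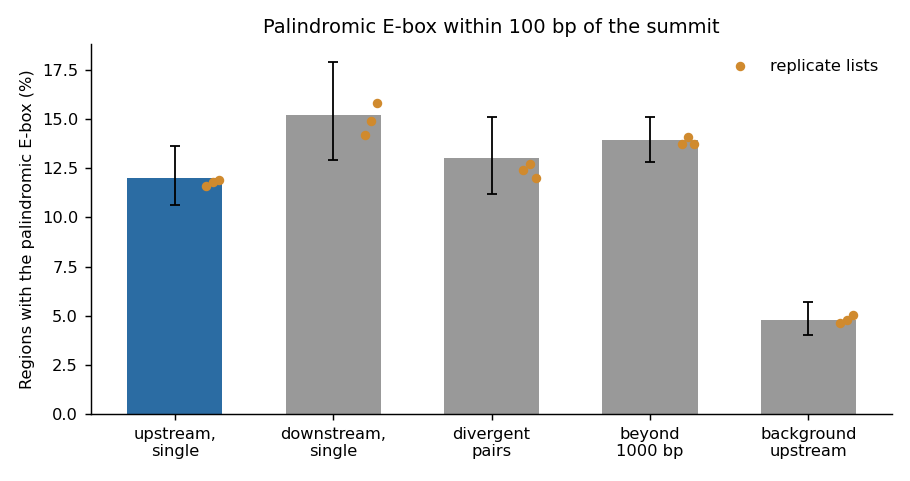
Share of regions with the palindromic E-box within 100 bp of the summit, in percent, for upstream members (blue) and the other classes (grey), with 95% Wilson intervals and the 3 replicate lists as orange points. Members stand at 12.0%, the other optimal classes at 13.0 to 15.2% and background upstream regions at 4.79%. The points at the background bar are upstream regions outside the 7366 strongest of each replicate, at any distance from optimal summits.

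Among members the E-box share was higher in stronger regions. With members split into 10 parts by signal, in the strongest part 48 of 177 members (27.1%, 21.1 to 34.1%) held CACGTG, and in the weakest part 8 of 176 (4.55%, 2.32 to 8.71%). The replicate lists gave 26.0% ± 1.49 in the strongest part of their upstream regions and 5.52% ± 0.251 in the weakest (SD, n = 3). The share was also uneven along the promoter. Members up to 100 bp from the TSS held it in 46 of 308 cases (14.9%, 11.4 to 19.3%), members 100 to 700 bp away in 129 of 1284 (8.52 to 11.8%) and members 700 to 1000 bp away in 37 of 176 (21.0%, 15.7 to 27.6%). In the replicates these zones, which were chosen after seeing the shares, gave 15.1% ± 2.53, 9.86% ± 0.372 and 19.2% ± 0.457 (SD, n = 3), the farthest zone being highest in 3 of 3. Background upstream regions in the same zones had 2.95%, 4.89% and 6.65%. Members inside their own gene held CACGTG in 9.65% of cases (7.72 to 12.0%) and those outside it in 13.7% (11.7 to 15.9%).

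**Figure D4:**
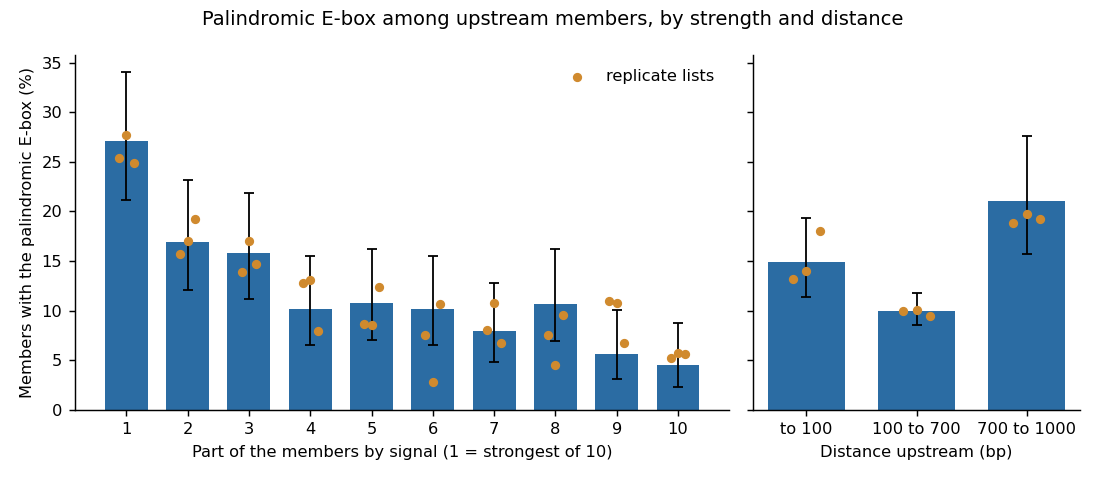
Share of upstream members with the palindromic E-box, in percent, by part of the members by signal, 1 of 10 being the strongest (left) and by distance from the TSS in bp (right), with 95% Wilson intervals and the replicate lists as orange points. The share is 27.1% in the strongest part, 4.55% in the weakest, and 21.0% at 700 to 1000 bp.

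Sites lay close to the summit and without a preferred side. The median distance from summit to the centre of the nearest CACGTG was 32 bp, and 146 of the 212 members with one (68.9%) had it within 50 bp. It lay toward the TSS in 106 members and away from it in 106. A second CACGTG was present in 7 members. Of the 219 sites in members, 52 (23.7%) read GCACGTGA with the adjoining bases, against 14.5% of 124 sites downstream, 19.2% of 120 background upstream sites and 13.6% of all 16428 CACGTG sites in the genome. Another 49 (22.4%) read ACACGTGC, against 27.4% downstream, 15.0% in the background and 17.4% in the genome, each counted with its reverse complement. The octamer CCACGTGG was found in 0 of 219 sites, which allows a share of up to 1.37%. It was also scarce in the other regions, with 2 of 124 downstream and 1 of 120 in the background, against 6.20% of sites in the genome.

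Other listed motifs were compared in the same way. Of 18 motifs searched within 100 bp on both strands, 4 passed adjusted p under 0.05 against downstream regions by two-sided Fisher exact test. TATAAA, the core of the TATA box, was found in 31.2% of members and 21.8% of downstream regions (odds ratio 1.63, Fisher exact test, adjusted p = 1.4e-05). It was also found in 32.6% of the windows at all single promoters. CACGCG, the class C site known for Hairy-type repressors, was found in 7.58% of members and 13.1% of downstream regions (odds ratio 0.544, Fisher exact test, adjusted p = 1.6e-04), and the E-box variant CACCTG in 5.54% and 9.07% (odds ratio 0.588, adjusted p = 0.00639). The control word CAGTCG, listed with no factor in mind, was lower too, in 7.64% of members and 12.0% of downstream regions (Fisher exact test, adjusted p = 0.00338). In the windows at all single promoters CACGCG was found in 2.73%, CACCTG in 6.40% and CAGTCG in 5.44%. Background upstream regions held CACGCG in 5.78% of cases, and its difference from members missed the threshold (Fisher exact test, adjusted p = 0.0679). Against background upstream regions 4 of the 18 passed the Fisher exact test, all higher in members, namely CACGTG, its variant CACGTT (10.6% and 8.10%, adjusted p = 0.0297), the GATA factor core TGATAA (21.7% and 17.6%, adjusted p = 0.00527) and TATAAA (31.2% and 26.4%, adjusted p = 0.00527).

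A scan covered all 2080 hexamer classes. Against downstream regions 12.3% of hexamers passed adjusted p under 0.05, 5.77% higher and 6.54% lower in members, with A and T words such as ATTTAA among the higher ones, present in 37.9% of members and 23.4% of downstream regions (odds ratio 1.99, Fisher exact test, adjusted p = 7.3e-10). Among the lower ones ACACAC, at place 2 by p of all hexamers, was present in 14.4% of members and 26.4% of downstream regions (odds ratio 0.467, Fisher exact test, adjusted p = 8.8e-10). CACGTG was at place 419 by p in that scan. Against background upstream regions 6.73% passed, 3.80% higher and 2.93% lower in members. There CACGTG was first (Fisher exact test, adjusted p = 5.4e-14), followed by ATTTAA, in 37.9% of members and 27.9% of background regions (adjusted p = 1.0e-08), and by ACGTGC, which overlaps CACGTG by 5 bases, in 13.2% and 7.35% (adjusted p = 3.1e-07). Median GC content was 38.3% in members and 41.3% in background upstream regions, and its part in the A and T words was not tested.

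The promoters next to members differed from other promoters of genes with no TSS in a divergent pair. Within the 300 bp upstream of the TSS, GAGAGA, the repeat bound by the GAGA factor Trl, was found at 448 of 1546 member TSSs (29.0%), against 1395 of 9761 other TSSs (14.3%), an odds ratio of 2.45 (2.16 to 2.77, two-sided Fisher exact test, adjusted p = 1.8e-41 over 4 elements). Near the summits themselves the repeat was in 15.0% of members and 12.9% of background upstream regions, a difference that missed the threshold (Fisher exact test, adjusted p = 0.116). The windows at all single promoters held it in 8.19% of cases. The DNA replication-related element TATCGATA was found at 2.78% of member TSSs and 4.92% of others (odds ratio 0.553, Fisher exact test, adjusted p = 1.1e-04). A TATAAA placed 40 to 20 bp before the TSS was found at 71 member TSSs (4.59%), against 746 others (7.64%), which is an odds ratio of 0.582 (exact test as above, adjusted p = 8.8e-06). With members outside their own gene only, the odds ratio was 0.826 (Fisher exact test, p = 0.199). The other elements were not recomputed for those members. These tests treat each TSS as an independent unit, though TSSs of the same gene can share upstream sequence. Member TSSs include genes that also have a TSS in a divergent pair, while the other TSSs do not. The other TSSs include genes that embryos may not express, and expression was not measured here.

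Gene groups are given as counts, beside the 13.4% of all genes outside divergent pairs, with no test between lists, most of which are small. Counts below are genes of a list that have a member and no TSS in a divergent pair, over all genes of the list with no such TSS. Of the clock loop 5 of 8 had one, and Clk, cyc and cwo did not. The period-partner gene tim had a member 189 bp upstream with CACGTG at replicate places 84, 74 and 79. Pdp1, an activator of the loop, had 3 members, the strongest 105 bp upstream with CACGTG at places 169, 125 and 113. That summit has a stronger optimal summit within 400 bp. Its replicate places may be those of regions that hold both. At per the member lay 464 bp upstream with CACGTG at places 2374, 2550 and 2311. The repressor gene vri had its strongest at places 2424, 1279 and 1424 without CACGTG, and the photoreceptor gene cry was weak, at places 5423, 6861 and 10077. The clock genes thus ranged from near the top of the list to near its end.

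Repressors of the same family and their partners were among the members. Of the bHLH-Orange genes 5 of 10 had one, namely hry, E(spl)m3-HLH, E(spl)mbeta-HLH, Sidpn and E(spl)m7-HLH, none with CACGTG at its strongest member. The strongest was hry, 6 bp upstream at places 621, 530 and 467. In the Notch list 3 of 9 had one. Counting also genes with a TSS in a divergent pair, 5 of 15 Notch genes did, led by gro, the corepressor that Hairy-type repressors recruit, 133 bp upstream at places 314, 517 and 461. Among GATA factors and their cofactor ush 4 of 6 had a member, none with CACGTG at its strongest member, and srp was far ahead of ush, GATAe and grn, whose places in the optimal list were 1206, 3989 and 5783.

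Enzymes of sugar and lipid metabolism were there too. In glycolysis and lactate metabolism 5 of 8 genes had a member, and 7 of 15 with divergent genes counted. Gapdh2 was followed by the hexokinase gene Hex-A, 128 bp upstream at places 261, 287 and 283, and the trehalase gene Treh at places 528, 281 and 321. Ldh, Pgk and Ald1 stood at places 867, 906 and 3139 of the optimal list. The pyruvate kinase gene PyK, which has a TSS in a divergent pair, had 3 members, the strongest 615 bp upstream at places 2722, 1646 and 1827. It was the only 1 of the 7 with CACGTG at its strongest member. In the lipid list 6 of 8 had one, or 8 of 18 with divergent genes counted. After Gpo1 came the phosphatidate phosphatase gene Lpin at places 201, 200 and 186, the acetyl-CoA synthetase gene AcCoAS at places 186, 232 and 271, and ACC, acetyl-CoA carboxylase, at places 242, 274 and 233. Of these 8, Gpo1 and Acsl held CACGTG. 

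Cytosolic ribosomal protein genes had members very close to the TSS. Of 33 outside divergent pairs 15 had a member (45.5%), while 52 of the 85 genes lie in such pairs. The strongest member of each lay 1 to 682 bp upstream with a median of 21 bp, against 248 bp over all members. RpL11 led, 41 bp upstream with CACGTG at places 569, 750 and 960, followed by RpL23A at places 825, 1090 and 2353 and RpL30 at places 1050, 1134 and 2538. Their place was better in replicate 1 than in replicate 3 for 13 of 15 genes, against 758 of all 1768 members (42.9%) and 167 of the 308 members within 100 bp of a TSS (54.2%), and all 4 members of the translation factor list went the same way. This difference between libraries was not tested. RpL37-1, whose symbol the list's pattern misses, had a weak member at place 7309.

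Some groups had few members or none. Mitochondrial ribosomal protein genes had 0 of 15, aminoacyl-tRNA synthetases 0 of 11, autophagy and lysosome genes 0 of 7 and Hox genes 0 of 8. A count of 0 allows a share of up to 37.5% of the Hox genes, which is above 13.4%. The other counts of 0 are over few genes and also allow shares above 13.4%. Segmentation genes had 1 of 19, the pair-rule gene hry, which is also counted with the bHLH-Orange genes. With divergent genes counted, the limits are 4.11% of 73 mitochondrial ribosomal protein genes and 8.57% of 35 synthetases, below the 9.64% of all protein-coding genes. However, 58 and 24 of them lie in divergent pairs and could have a member only at another TSS. For 20 autophagy and lysosome genes the limit so counted is 15.0%, above 9.64%. The respiratory chain had 1 of 38, COX7AL2, 883 bp upstream at places 473, 650 and 827. Vacuolar ATPase subunits had 1 of 19 and proteasome subunits 1 of 22. Translation factors had 3 of 26 (11.5%), near the 13.4% of all genes outside divergent pairs.

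Of 15 neuronal genes 3 had a member, led by the RNA-binding protein gene elav, 273 bp upstream at places 154, 187 and 171. Of 6 glial genes 1 did, and with divergent genes counted 2 of 9, led by moody, a G protein-coupled receptor gene of the blood-brain barrier, at places 219, 351 and 286. Muscle genes had 1 of 13 and fat body and hemocyte genes 1 of 9. With divergent genes counted, muscle genes had 5 of 20, above the 9.64% of all protein-coding genes, and fat body and hemocyte genes 1 of 12. Epithelial polarity and septate junction genes had 5 of 12, none with CACGTG at its strongest member, led by Atpalpha, a sodium pump subunit gene, at places 1027, 557 and 475, and ecdysone response genes 4 of 13, with E23 first. Ribosome biogenesis genes outside divergent pairs had 4 of 4, but 16 of the 20 matched lie in such pairs. The kinase and phosphatase list had 2 of 5, the kinase gene sgg at places 228, 188 and 250 and the phosphatase subunit gene tws at places 7750, 3110 and 3833. Membrane transporter genes had 4 of 12, and the Myc, Max, Mondo and SREBP list 1 of 2.

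**Figure D5:**
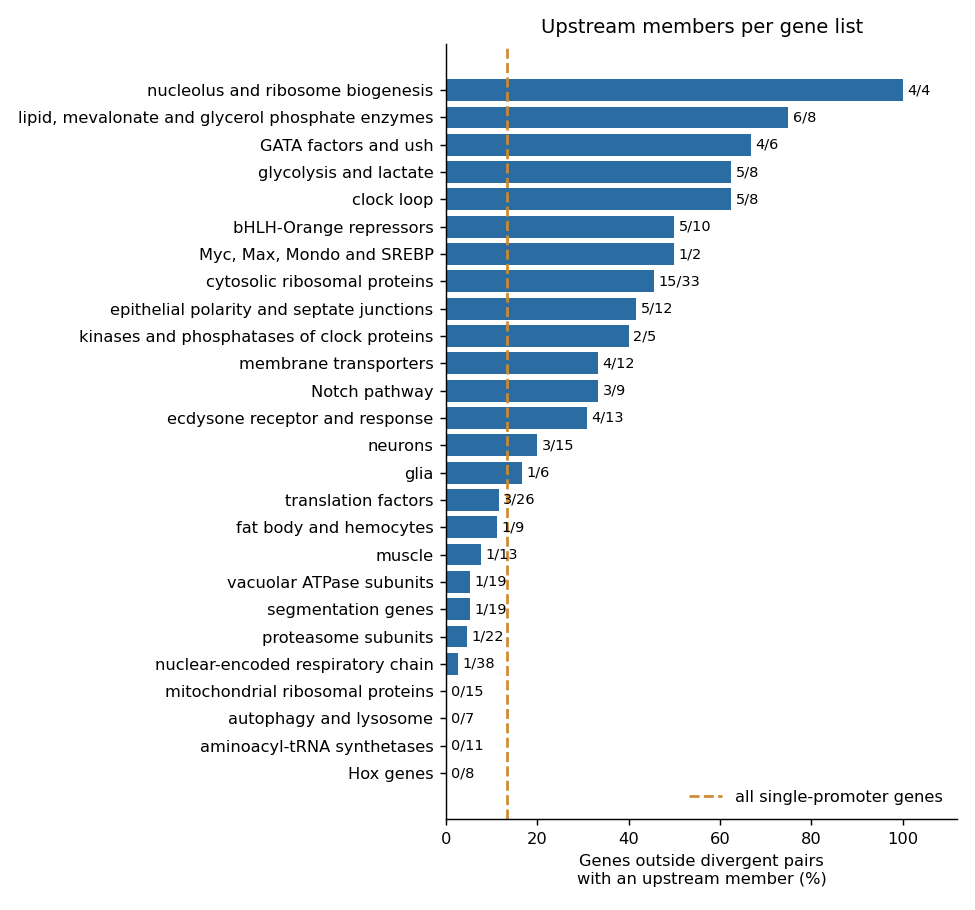
Share of the genes of each list outside divergent pairs that have an upstream member, in percent, with the counts beside each bar and a dashed line at 13.4%, the share of all such genes. Shares run from 0 in 4 lists to 4 of 4 in the ribosome biogenesis list, and small lists carry wide counting error.

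The ends of the distance range held strong and weak regions. The 3 nearest a TSS lay 1 bp upstream, at CG32425, the phosphatase gene Mkp3 and the receptor gene mthl9, at places 259, 489 and 2964. The 2 farthest inside the limit were at CG34039 (998 bp, place 4079) and Oda (996 bp, place 3117), and the 2 nearest outside it were at Tim17a2 and CG33080, both at 1001 bp and at places 557 and 2175.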

How the data were processed

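Per the labels and the text files deposited beside them, the authors called regions in each replicate against a control alignment and again on pooled reads, and kept as optimal the regions that passed the irreproducible discovery rate procedure. The sources used here do not give the aligner, peak caller, versions or threshold. The deposited value used is the caller's signal per region, from the dm6 lists; the dm3 lists were not used here. Depth is unknown, so Wilson intervals (95%) and limits for a count of 0 (3 counts) cover counting error over regions or genes only.

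Genes and TSSs came from Ensembl release 115 and sequence from the Release 6 assembly, which is dm6. Shares were compared by two-sided Fisher exact tests, and strata by an exact conditional test, with p adjusted by Benjamini-Hochberg (scipy 1.17.1, statsmodels 0.14.6, Python 3.11.15). The hexamer scan was tested on simulated data. A replicate held a region when the summit lay in 1 of its 7366 strongest regions, and leaving a replicate out kept the optimal regions that both others held. Members, motifs, gene lists and the rule for named genes (the 20 strongest members, up to 3 per list, the clock genes, those nearest the TSS and the 1000 bp limit) were chosen with earlier results of these data known. After values were seen, 9 listed symbols were respelled as the annotation has them, 10 duplicates or genes that did not belong were taken out of the lists, and 2 symbols still matched no gene. Alternatives were other distances, pair separations, windows, backgrounds, the strongest 3683 regions, no secondary summits and each replicate left out; those added after seeing the data were 1 region per gene, members outside their gene and stratified tests.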

Additional observations from a re-analysis of the deposited data

How the results depend on the processing

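Across the alternatives, 161 of 216 recomputed values stayed on the same side of 1 and of the threshold. Counts had to stay within 1.5 times, and the difference by rank within 1 SD of the replicates. The 216 include values that a setting could not change, such as the member count with another motif window. The tally is therefore not a measure of robustness. The odds ratio of the CACGTG share against background upstream regions stayed above 1 and passed the threshold wherever recomputed, at 2.38 to 3.63. This comparison was not made within parts of the list by signal or by GC content. Against downstream regions the odds ratio passed the threshold at 500 bp to the TSS (0.676), with divergent pairs up to 500 bp (0.673) or 2000 bp (0.752) apart, with motif windows of 50 bp (0.695) or 200 bp (0.781) and within 4 parts of the list by signal (0.668), and ranged over 0.729 to 0.796 with a replicate left out, passing without replicate 1 (0.729). Against divergent pairs it passed with the 200 bp window (0.772), and was above 1 with pairs up to 500 bp apart (1.07), 1 region per gene (1.02) and members outside their gene (1.06), and 0.925 to 0.941 with a replicate left out. Against regions beyond 1000 bp it passed at 500 bp to the TSS (0.760), with pairs up to 2000 bp (0.818), with windows of 50 bp (0.781) and 200 bp (0.855) and within 4 parts of the list by signal (0.731), and was 0.838 to 0.862 with a replicate left out.

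The odds ratio for the 737 strongest regions fell to 1.31 in the strongest 3683 regions. That for regions found in all replicates passed at 500 bp to the TSS (1.27), with pairs up to 2000 bp apart (1.23) and with replicate summits within 100 bp (1.26), turned to 0.474 in the strongest 3683 regions, passing in the opposite direction, and was 1.12 to 1.26 with a replicate left out, passing without replicate 1 (1.26). For gene strand it passed to the other side of 1 at 500 bp (1.04), with pairs up to 500 bp (1.03) or 2000 bp (1.01) apart and with members outside their gene (1.01). For TATAAA at member promoters it was 0.826 with members outside their gene. Members numbered 1134 with the 5′-most TSS of each gene, 1016 in the strongest 3683 regions and 1032 outside their gene, and 1398 to 1491 with a replicate left out; listed genes with a member were 92 of 672, or 60 with the 5′-most TSS and 52 with members outside their gene. Listed motifs called against downstream regions were 8 at 500 bp, with the 5′-most TSS, with pairs up to 500 bp apart or outside their gene, 7 with 1 region per gene, 2 in the strongest 3683 regions and 2 to 5 with a replicate left out. Hexamers called against downstream regions were 413 at 500 bp, 39 in the strongest 3683 regions, 142 with the 50 bp window and 145 to 171 with a replicate left out. Against background they were 82 with the 5′-most TSS, 42 with the 50 bp window and 73 outside their gene. The CACGTG share of the strongest of 10 parts of the members exceeded that of the weakest by 22.6 percentage points, and by 18.6 at 500 bp, 27.1 with the 5′-most TSS, 19.2 with pairs up to 2000 bp apart, 15.2 and 19.2 with windows of 50 and 200 bp, 24.4 with 1 region per gene, 28.8 outside their gene and 22.1 to 24.6 with a replicate left out. The cause of these shifts was not tested. No paired analysis was possible because the labels give a single group, so no groups share replicate numbers; classes of regions were compared within each replicate. Leaving a replicate out is a stricter choice of regions and not a new call, since the optimal list was made with all 3.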
